A study of Mus musculus with 12 samples.

Results

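The genes of MHC class II presentation were followed across 4 groups of 4T1-LUC mammary tumours. The set holds 8 of the 21899 genes in the table, chosen by name: H2-Aa, H2-Ab1, H2-Eb1, H2-DMa, H2-DMb1, H2-Oa, Cd74 and Ciita. Each name matched exactly 1 entry, and all 8 passed the filter on low counts. 4T1-LUC is a luciferase-carrying mouse breast cancer line, and it was placed under the skin of the chest and abdominal wall of BALB/c hosts aged 4 to 6 weeks, whose sex the labels do not give. RNA sequencing covered 12 libraries, 3 in each group. All mice received 200 µL by gavage each afternoon. The control group, labelled Tnm, received corn oil. The curcumin group received curcumin in corn oil at 100 mg/kg. The swimming group received corn oil and then swam for 30 min, and the combination group received curcumin and then swam for 30 min. Swimming stands in the titles and the protocol, while the label for treatment names only corn oil in the swimming libraries. No mouse without a tumour is among these 12 libraries, so every comparison is between tumours. The question is whether curcumin, swimming or their combination changed the level of these genes in the tumour.

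MHC class II molecules sit on the surface of dendritic cells, macrophages and B cells and show peptides from engulfed proteins to CD4 T cells. An α and a β chain form the peptide groove, the invariant chain Cd74 fills it until the molecule reaches the endosome, and H2-DM exchanges the last invariant chain fragment for a peptide while H2-O restrains H2-DM. Ciita is the coactivator that switches on the genes of the groove chains, Cd74 and H2-DM, also in non-professional cells exposed to interferon-gamma. It binds no DNA itself and is recruited by the RFX, CREB and NF-Y factors sitting on an X box and a Y box upstream of such genes.

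No gene of the set passed the test in any comparison. Genes were tested with edgeR's quasi-likelihood test, p-values were adjusted by Benjamini and Hochberg's method over the 13638 genes tested, and an adjusted p of 0.05 or below is a call. The largest differences were between the swimming and curcumin groups, where Ciita and H2-Eb1 were lower by 0.80 and 1.15 on the log2 scale without passing. Libraries of the same treatment also differed, above all in the swimming group, where H2-Ab1 was 3.97 times as high in library 3 as in library 2. Across the libraries, 7 of the 8 genes moved together, and the set's mean moved with dendritic cell, macrophage and T cell marker genes. Part of this rested on single libraries: without the 2 farthest from each marker list's median, r was 0.81, 0.61 and 0.59.

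Library totals ran from 15069348 to 17278826 counts. Whether each library is from its own tumour or mouse is not in the labels, so the p-values cover the spread between libraries, part of which may be technical. Spread differed between groups: the biological coefficient of variation was 26.6% among control, 16.4% among swimming, 12.4% among curcumin and 6.47% among combination libraries. The epithelial markers Epcam, Krt8 and Krt18 were present throughout, with group means of 261.3 to 338.5, 643.8 to 784.8 and 724.8 to 953.2 CPM (counts brought to one common library size with TMM scaling). Skeletal muscle markers differed strongly between libraries, with summed levels of 42.3 to 521.8 CPM in control, 375.1 to 467.2 in curcumin, 67.9 to 203.9 in swimming and 114.0 to 120.6 in combination. Adipocyte markers summed to 23.8 to 26.3 CPM in combination and to 6.42 to 14.2 CPM in the other 9 libraries. The part of these cells in the results below was not tested. In such bulk RNA, fewer cells of a type and less RNA per cell cannot be told apart.

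Upstream sequence is shown for the genes whose RefSeq window held the paired X and Y motifs, because class II genes are known for this layout. Windows from 250 bases before to 50 bases after the gene start were found for 5 of the 8 genes (RefSeq, GRCm38.p6). The Y box core was searched as TGATTGG and the X box core as GCAAC, both on either strand, and as a pair with GCAAC starting 20 to 45 bases before TGATTGG on the same strand. These letters and the spacing were chosen after the sequences had been seen. The stretches below run from 140 to 39 bases before the start, 5′ to 3′ on the gene's strand, with GCAAC and TGATTGG in capitals.
H2-Aa: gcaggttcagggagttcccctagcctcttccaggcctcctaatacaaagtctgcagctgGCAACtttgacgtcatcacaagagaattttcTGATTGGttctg
H2-Eb1: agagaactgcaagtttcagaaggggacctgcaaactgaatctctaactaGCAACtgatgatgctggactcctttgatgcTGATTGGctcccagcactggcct
H2-Oa: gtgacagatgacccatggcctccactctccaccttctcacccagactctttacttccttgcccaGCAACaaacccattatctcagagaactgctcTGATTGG

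The 3 stretches lie at chr17:34287862-34287963 on the minus strand for H2-Aa, chr17:34305727-34305828 on the plus strand for H2-Eb1 and chr17:34092239-34092340 on the plus strand for H2-Oa. The motif starts were 31 bases apart in H2-Aa and H2-Oa and 30 in H2-Eb1, although the sequence between them differed. Among all 32851 windows, 7.82% held TGATTGG, 35.2% held GCAAC and 0.256% (84 windows) held the pair. The pair also stood in the windows of H2-Ob and H2-Eb2, which encode other class II chains. H2-DMb1 held TGATTGG without the pair, and neither window of H2-DMa held the pair. A match describes letters only.

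Levels per gene length followed the same order in nearly every library. FPKM (counts divided by gene length and library total, as deposited) ranks genes against each other only as far as the deposited lengths hold. Those lengths were 3798 bases for H2-Aa, 1944 for H2-Eb1, 9535 for Ciita and 1681 for H2-DMb1. Without division by length these places turned: control means were 163 CPM for H2-Aa and 119 for H2-Eb1, and 71.5 for Ciita and 22.2 for H2-DMb1. Whether the lengths match the transcripts in these tumours was not tested. Cd74, which pairs with every newly made class II molecule, stood first with a median of 672.1 FPKM over the 12 libraries (344.1 to 977.8). The classical chains came next, H2-Ab1 at 120.0 FPKM (49.5 to 199.7), H2-Eb1 at 50.9 (23.1 to 129.1) and H2-Aa at 35.4 (18.3 to 61.6). The endosomal exchange factor followed, with its α chain H2-DMa at 25.6 FPKM (15.02 to 35.2) and its β chain H2-DMb1 at 11.4 (7.65 to 19.3). Ciita, a regulator, had a median of 6.82 FPKM (3.79 to 11.5). H2-Oa, the α chain of the H2-DM inhibitor and a gene known mainly from B cells, stood last at 0.696 FPKM (0.403 to 1.05). Each gene was above the next in all 12 libraries, except that H2-Aa exceeded H2-DMa in 11 of 12. The FPKM of H2-Aa, H2-Ab1 and H2-Eb1 may be touched by mapping, since BALB/c carries another H2 haplotype than the reference strain; this was not tested.

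**Figure D1:**
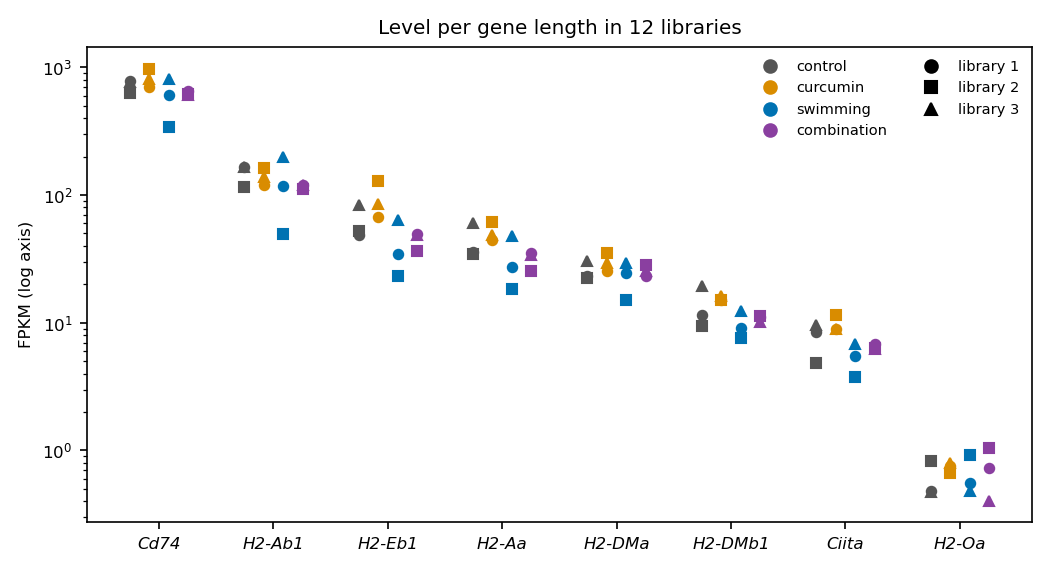
FPKM (log axis) of the 8 genes in 12 libraries, ordered by median, with colour for group and shape for library number. Cd74 lies highest and H2-Oa lowest in every library, and swimming 2 (blue square) lies lowest of its group for every gene except H2-Oa.

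The α chain H2-Aa (ENSMUSG00000036594, chromosome 17, 34501718 to 34506797 in the deposited table) encodes the groove's α side of I-A. It measured 135.0, 134.4 and 220.4 CPM in control libraries 1 to 3 and 164.8, 230.5 and 181.8 CPM in the curcumin libraries. It measured 107.3, 71.6 and 184.5 CPM in the swimming libraries and 133.1, 99.1 and 129.5 CPM in the combination libraries. All 3 combination libraries were below all control and all curcumin libraries, while swimming overlapped with every other group.

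H2-Ab1 (ENSMUSG00000073421, chromosome 17, 34476663 to 34488393) encodes the I-A β chain. Its level was 419.7, 302.0 and 413.6 CPM in control, and 300.2, 413.6 and 346.4 CPM in curcumin. In the swimming libraries it was 313.6, 130.5 and 517.9 CPM, and in combination 307.1, 291.1 and 306.2 CPM. The lowest and the highest of the 12 libraries were both swimming libraries, so this group enclosed all the others.

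H2-Eb1 (ENSMUSG00000060586, chromosome 17, 34524841 to 34535648) encodes the I-E β chain, whose partner H2-Ea was looked for but has no entry under that name. Its level was 94.1, 104.8 and 156.8 CPM in control and 127.1, 247.2 and 162.4 CPM in curcumin. It was 69.8, 46.2 and 125.2 CPM in swimming and 95.6, 71.8 and 95.7 CPM in combination. All curcumin libraries were above all swimming and all combination libraries, but control libraries overlapped with each treated group.

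Cd74 (ENSMUSG00000024610), the invariant chain, gave 1297, 1082 and 1232 CPM in control and 1133, 1617 and 1339 CPM in curcumin. Swimming gave 1061, 593.5 and 1379 CPM, and combination 1089, 1056 and 1022 CPM. Combination was the tightest group and lay below every curcumin library, and swimming 2 was far below the rest.

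H2-DMa (ENSMUSG00000037649, chromosome 17, 34338515 to 34358075), the α chain of the peptide exchanger, had the smallest ratio of highest to lowest library in the set, 2.25. It measured 79.7, 79.5 and 100.4 CPM in control, 85.7, 119.5 and 99.8 in curcumin, 87.4, 53.2 and 103.0 in swimming and 79.9, 99.9 and 88.5 in combination. No pair of groups was separate for this gene. Its β chain H2-DMb1 (ENSMUSG00000079547, chromosome 17, 34372046 to 34379204) measured 19.1, 16.1 and 31.3 CPM in control and 24.8, 25.2 and 26.4 CPM in curcumin. Swimming libraries gave 15.7, 13.2 and 21.1 CPM, and combination libraries 18.7, 19.4 and 16.9 CPM. Curcumin was above both swimming and combination without overlap, and control overlapped with each of them. H2-DMb1 has a close neighbour copy, H2-DMb2, and how reads shared by such copies were counted is not stated.

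H2-Oa (ENSMUSG00000024334, chromosome 17, 34311314 to 34314208) rested on 9 to 25 counts per library, where 3 counts would be 0.174 to 0.199 CPM. Its level was 0.67, 1.18 and 0.64 CPM in control, 1.02, 0.91 and 1.09 in curcumin, 0.80, 1.32 and 0.69 in swimming and 1.03, 1.51 and 0.57 in combination. All groups overlapped. At this depth a modest difference in H2-Oa was not detectable.

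Ciita (ENSMUSG00000022504, chromosome 16, 10297923 to 10346282) measured 79.7, 47.0 and 87.9 CPM in control and 82.2, 108.3 and 83.9 CPM in curcumin. It measured 54.2, 37.1 and 66.1 CPM in swimming and 64.5, 61.9 and 59.2 CPM in combination. Every curcumin library was above every swimming and combination library, and control 2 was lower than all but swimming 2.

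**Figure D2:**
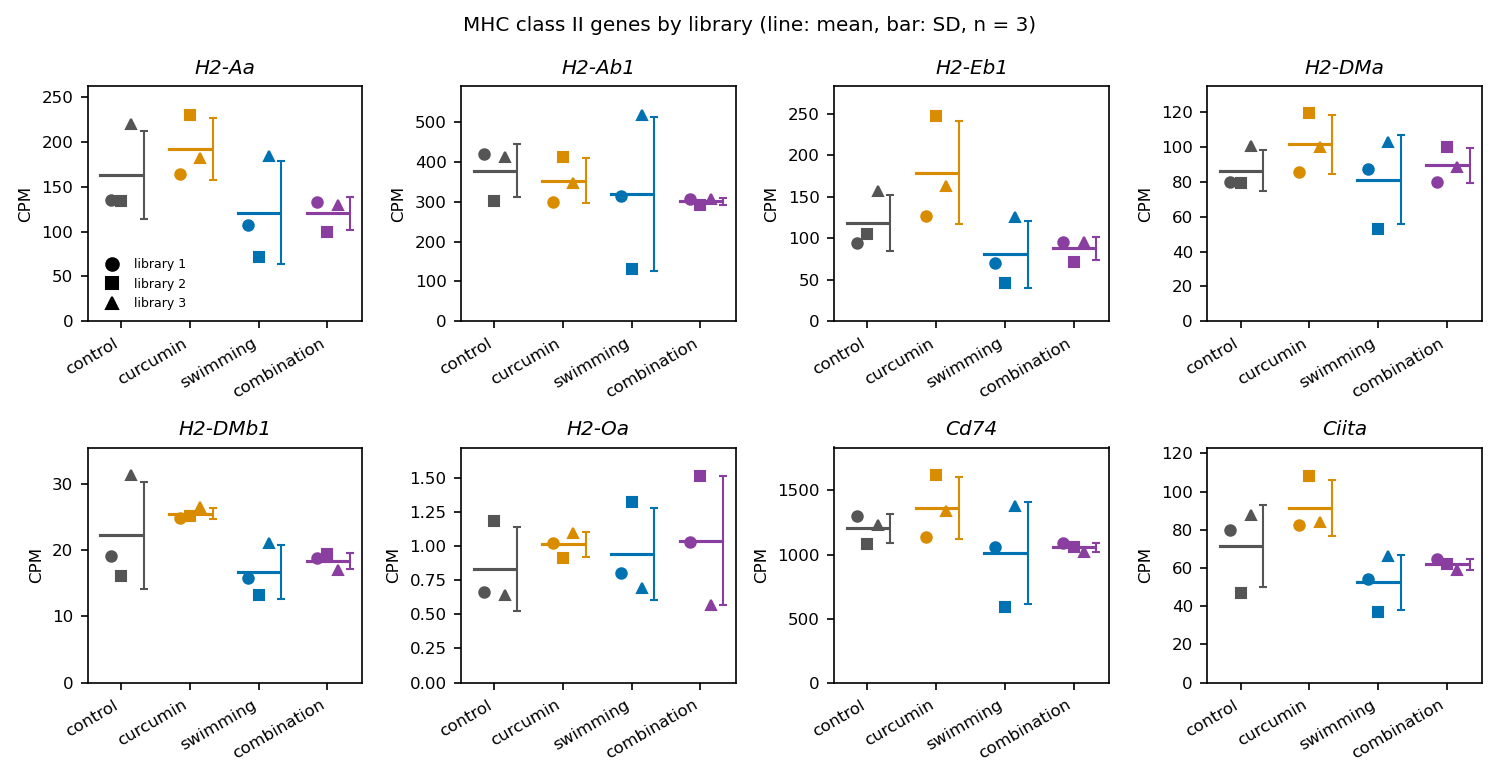
CPM of each gene by group (points: libraries, with shape for library number; horizontal line: mean; bar: SD, n = 3; each vertical axis starts at 0). Swimming 2 is the lowest library of all 12 for 7 of the 8 genes, and combination has the smallest SD for 6 genes (all but H2-DMb1 and H2-Oa).

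Extremes fell on the same few libraries. Swimming 2 was the lowest of the 12 for every gene but H2-Oa, and curcumin 2 was the highest for 5 genes. H2-Ab1 was 3.97 times as high in swimming 3 as in swimming 2, H2-Eb1 2.71 times, H2-Aa 2.58 times and Cd74 2.32 times. By group mean, curcumin was highest for 6 of 8 genes and swimming lowest for 5.

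Curcumin against control gave small differences. The log2 fold change was above 0 for 7 of 8 genes (50.3% of all genes), H2-Ab1 being the exception at -0.10 ± 0.36 (SE), and the median over the set was 0.23 against 0.00 over all genes. The median was 0.12 without control 2 and 0.43 without control 3. H2-Eb1 was at 119 ± 33.5 CPM in control and 179 ± 61.7 CPM in curcumin (mean ± SD, n = 3), a log2 difference of 0.59 ± 0.35 (edgeR adjusted p = 0.544). Ciita stood at 0.35 ± 0.24 (edgeR adjusted p = 0.583). Neither passed the test, and for both genes the control and curcumin libraries overlapped. The edgeR test called 0 of 8 genes, and 0.0% of all genes tested. At an unadjusted p under 0.05 it counted 0 of the 8 beside 10.9% of all genes, and DESeq2 and limma voom also called 0 of the 8.

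Swimming against control leaned the other way. The log2 fold change was under 0 for 7 of 8 genes (52.0% of all genes), H2-Oa being the exception at 0.17 ± 0.46, and the median was -0.33 against -0.01 over all genes. Ciita averaged 71.5 ± 21.6 CPM in control and 52.5 ± 14.6 CPM in swimming, a log2 difference of -0.45 ± 0.24 (edgeR adjusted p = 0.469). H2-DMb1 was at -0.41 ± 0.22 with the same adjusted p of 0.469, and H2-Eb1 at -0.56 ± 0.35 (edgeR adjusted p = 0.547). Among the 8 genes 0 were called (0.308% of all genes), and DESeq2 and limma voom called 0. At an unadjusted p under 0.05, 0 of the 8 were lower and 0 higher, beside 7.11% and 5.87% of all genes. The median rested on single libraries: it was -0.16 without swimming 2 and -0.63 without swimming 3. Without swimming 2, the differences of Cd74, H2-Ab1 and H2-DMa lay above 0 (0.02, 0.14 and 0.14) and that of H2-Oa lay under 0 (-0.15).

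Combination against control gave a median of -0.24 against -0.02 over all genes, with 6 of 8 genes under 0 (52.8% of all genes). H2-Aa lay below the control range in all 3 combination libraries, at 163 ± 49.5 CPM in control and 121 ± 18.7 CPM in combination, and its log2 difference was -0.44 ± 0.31 (edgeR adjusted p = 0.388). It was the only gene of the set with separate groups, and 15.8% of all genes were lower without overlap. H2-Eb1 was at -0.43 ± 0.35, Cd74 at -0.19 ± 0.24 and Ciita at -0.21 ± 0.24. Of the 8 genes 0 were called (4.86% of all genes) and 0 had an unadjusted p under 0.05 (26.6% of all genes), while DESeq2 and limma voom called 0. The median ran from -0.45 without control 2 to -0.10 without control 3.

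Combination against curcumin, which asks what swimming added to curcumin, had 5 of 8 genes lower without overlap (H2-Aa, H2-Eb1, H2-DMb1, Cd74 and Ciita), beside 18.5% of all genes. H2-Eb1 averaged 179 ± 61.7 CPM in curcumin and 87.7 ± 13.8 CPM in combination, a log2 difference of -1.03 ± 0.35 (edgeR adjusted p = 0.167). Ciita averaged 91.5 ± 14.6 CPM and 61.9 ± 2.69 CPM, a difference of -0.56 ± 0.24 (edgeR adjusted p = 0.245). H2-Aa was at -0.67 ± 0.31, H2-DMb1 at -0.47 ± 0.22 and Cd74 at -0.37 ± 0.24, with edgeR adjusted p-values of 0.285, 0.283 and 0.440. The edgeR test called 0 of the 8 genes (0.851% of all genes), while H2-Eb1 and Ciita had an unadjusted p under 0.05 (18.0% of all genes). The set's median was -0.42 against -0.01 over all genes.

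For this pair the number of calls differed between fits. With each group given its own weight in limma voom, 4 of the 8 genes were called (H2-Eb1, Ciita, H2-DMb1 and H2-Aa, adjusted p from 0.0191 to 0.0460), and so were 14.2% of all genes. With only these 6 libraries fitted in edgeR, 3 were called (Ciita, H2-DMb1 and H2-Aa, adjusted p from 0.00535 to 0.0277), beside 16.0% of all genes. DESeq2 called 0 of the 8. Leaving out any one of the 12 libraries gave 0 calls in edgeR.

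Swimming against curcumin showed the widest differences, with all 8 log2 fold changes under 0 (52.8% of all genes) and a median of -0.52 against -0.02 over all genes. Ciita averaged 91.5 ± 14.6 CPM in curcumin and 52.5 ± 14.6 CPM in swimming, a log2 difference of -0.80 ± 0.24 (edgeR adjusted p = 0.0982). H2-Eb1 averaged 179 ± 61.7 and 80.4 ± 40.5 CPM, a difference of -1.15 ± 0.35 (edgeR adjusted p = 0.106). H2-DMb1 was at -0.61 ± 0.22 (edgeR adjusted p = 0.143), H2-Aa at -0.67 ± 0.31 (0.241) and Cd74 at -0.43 ± 0.24 (0.317). H2-Ab1 was at -0.14 ± 0.36 (0.852). Ciita, H2-Eb1 and H2-DMb1 were lower in swimming without overlap, beside 15.3% of all genes, and were also the 3 with an unadjusted p under 0.05 (21.8% of all genes).

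Here edgeR called 0 of 8 genes (1.78% of all genes), DESeq2 called Ciita (adjusted p = 0.0179, beside 7.57% of all genes), and limma voom, weighted by group, called Ciita, H2-Eb1 and H2-DMb1 (adjusted p from 0.0254 to 0.0495, beside 6.65%). Without control 2, which belongs to neither group but enters the shared spread, edgeR called Ciita (adjusted p = 0.0172) and H2-DMb1 (0.0493), beside 11.1% of all genes. H2-Ab1 changed direction without swimming 2, from -0.14 to 0.23.

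Combination and swimming overlapped for every gene of the set, whereas 20.4% of all genes were higher and 20.2% lower without overlap. The median was 0.13 against -0.0049 over all genes, and the largest difference was Ciita's, 0.24 ± 0.24 (edgeR adjusted p = 0.550). Called genes numbered 0 of 8 (6.66% of all genes), 0 had an unadjusted p under 0.05 (27.4% of all genes), and DESeq2 and limma voom called 0. The median was -0.12 without swimming 2 and 0.39 without swimming 3.

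Whether the 2 measures acted other than additively was tested by their interaction. It called 0 of 8 genes (0.249% of all genes), 0 had an unadjusted p under 0.05 (11.0%), DESeq2 and limma voom called 0, and the set's median was -0.12. That median was -0.34 without swimming 2 and 0.13 without swimming 3. In the test for any difference among the 4 groups, edgeR called 0 of 8 (5.64% of all genes), and H2-Eb1 and Ciita had an unadjusted p under 0.05 (29.7%). Their adjusted p-values were 0.122 and 0.139. DESeq2 called Ciita there (adjusted p = 0.0358, beside 19.5% of all genes), as did edgeR without control 2 (0.0257, beside 18.5% of all genes).

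**Figure D3:**
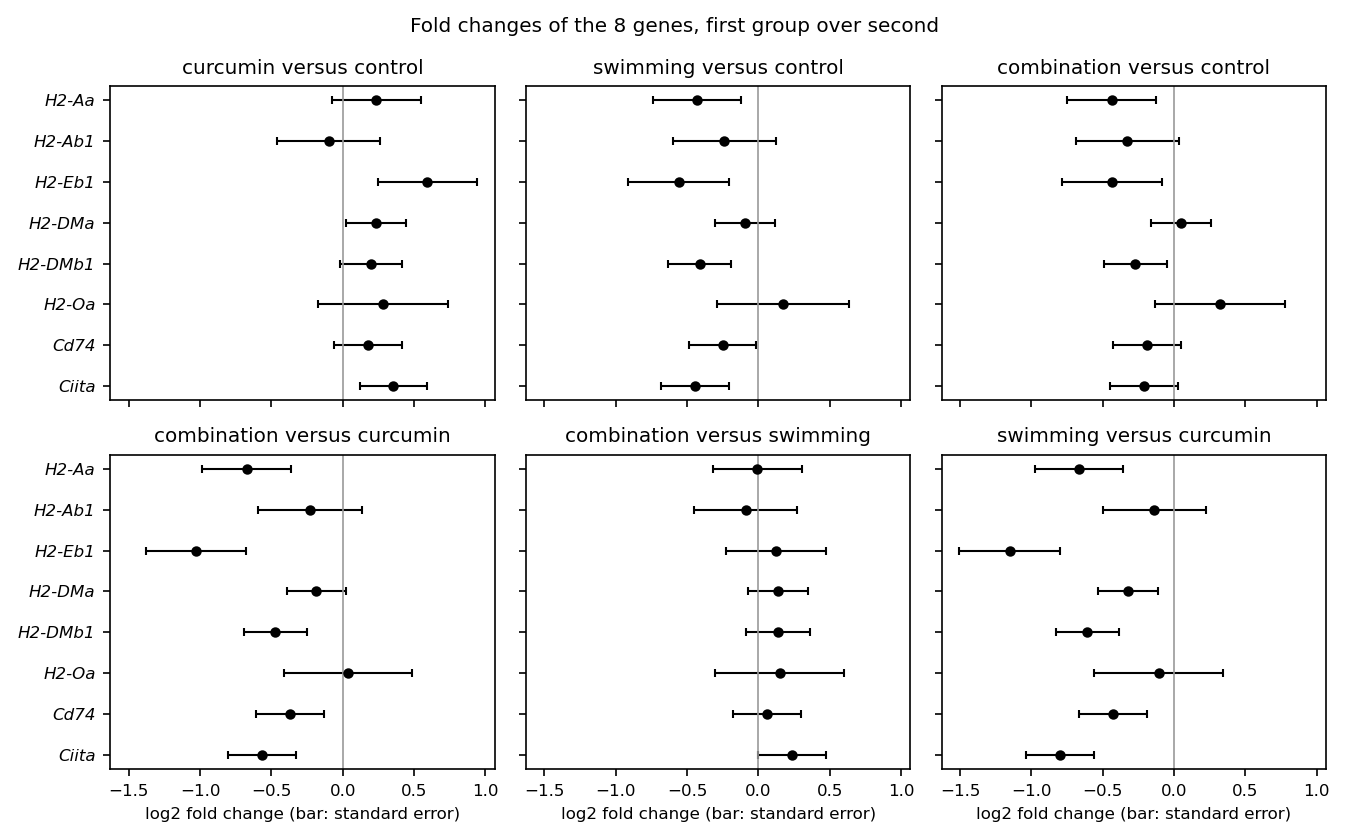
log2 fold change of each gene in 6 comparisons, first group over second, from edgeR (point: estimate; bar: standard error; line at 0). All 8 points lie under 0 for swimming versus curcumin, and the widest departure is that of H2-Eb1 at -1.15.

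The chains did not keep one ratio in every group. H2-Eb1 counted 42.4, 59.8 and 46.9 per 100 H2-Ab1 counts in the curcumin libraries. It counted 22.4, 34.7 and 37.9 in control, 22.2, 35.4 and 24.2 in swimming and 31.1, 24.7 and 31.3 in combination. The curcumin libraries were above the other 9 without overlap. This ratio was noticed after the values had been seen and carries no test. Per 100 Cd74 counts the groups were not separate, since H2-Eb1 stood at 12.7 in control 3 and at 11.2, 15.3 and 12.1 in the curcumin libraries. The ratio of H2-Aa to H2-Ab1 was 52.5 to 55.7 per 100 in curcumin, but control 3 (53.3) and swimming 2 (54.8) reached the same level. H2-Ab1 per 100 Cd74 counts ran from 22.0 (swimming 2) to 37.5 (swimming 3), so both extremes were again in the swimming group, and it was 25.6 to 26.5 in the curcumin libraries.

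**Figure D4:**
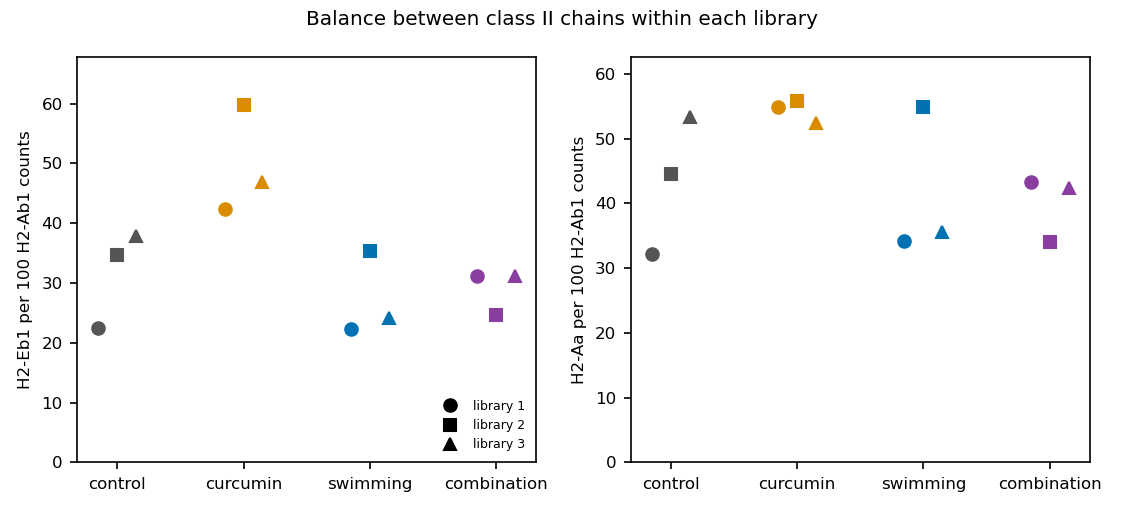
H2-Eb1 (left) and H2-Aa (right) counts per 100 H2-Ab1 counts in each library (points, with shape for library number; axes start at 0). On the left the 3 curcumin libraries lie at 42.4 to 59.8, above the other 9 at 22.2 to 37.9, and on the right the groups overlap.

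Across libraries the set moved as a block apart from H2-Oa. Over the 12 libraries, the 21 pairs of the other 7 genes had Pearson r of log2 CPM from 0.64 to 0.97 (median 0.84), and 0.56 to 0.98 after group means were subtracted. H2-Aa with H2-Eb1 had r = 0.97, Cd74 with H2-Ab1 0.93 and Ciita with H2-DMb1 0.89. The 7 pairs with H2-Oa had r from -0.59 to -0.25. These values describe libraries that share their depth and composition, and no p is given for them.

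A class II level was defined per library as the mean of the 8 genes' log2 CPM, each centred on its mean. It was -0.25, -0.76 and 0.19 in swimming libraries 1 to 3, -0.06, -0.08 and -0.19 in combination, 0.13, 0.53 and 0.30 in curcumin and -0.0038, -0.11 and 0.31 in control. Combination lay wholly below curcumin, and the 3 swimming libraries spanned more than the other groups. Ciita against the mean of the other 7 genes had r = 0.89 (Spearman's rho 0.90), and 0.72 without the 2 libraries farthest from its median.

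Among all other genes tested, the 10 whose log2 CPM followed the class II level most closely were Ctsw, Gimap7, Pik3cd, Entpd1, Tifa, Cd52, Dennd1c, Arhgap9, Cd8a and Lax1, with r from 0.93 to 0.96 over 12 libraries. Ctsw, a cathepsin of cytotoxic lymphocytes, led with 0.96. Cd8a, the CD8 coreceptor chain, ranged from 9.05 to 63.9 CPM over the libraries.

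Outside the set, 46 edgeR calls are named between groups or in the interaction. Whether the 3 combination libraries are separate tumours is not in the labels. Summing them to 1 library leaves that group without replicates, so that fit cannot decide whether calls involving combination hold. Calls between the other groups kept 3 libraries a group there and ended, with fewer libraries behind the shared spread. Of the 46 calls, DESeq2 made all 44 for which it gave an adjusted p. It also called more of all genes than edgeR in each comparison, such as 12.1% against 4.86% in combination versus control. With limma voom 9 of the 46 ended, and with replicate number as a block 21. With only the 2 groups fitted, 7 of 42 ended.

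Other genes of the class II pathway had at most 1 call in a comparison between groups. The 24 listed names included older names of Marchf1 and Marchf8. Of the 24, 20 were in the table and 19 were tested, among them paralogous chains, the X and Y box factors, the cathepsins and the ligase Marchf1. In swimming against control 1 fell (0.308% of all genes were called), in combination against control 1 (4.86%) and in swimming against curcumin 1 (1.78%). In curcumin against control, combination against curcumin, combination against swimming and the interaction 0 passed (0.0%, 0.851%, 6.66% and 0.249% of all genes). Nfya, the NF-Y subunit that contacts the Y box, measured 79.4, 94.6 and 86.1 CPM in control, 90.4, 85.7 and 90.8 in curcumin, 57.0, 68.1 and 54.8 in swimming and 68.7, 78.7 and 72.4 in combination. All swimming libraries were below all others. Nfya fell in swimming by 0.53 ± 0.10 (log2) against control (edgeR adjusted p = 0.0487) and by 0.57 ± 0.10 against curcumin (0.0227). The first call held in 2 of 12 fits that left out a library (adjusted p from 0.0250 to 0.226, the highest without swimming 1), and the second in 8 of 12 (0.00319 to 0.125). The first also ended with limma voom (0.218) and with only the 2 groups fitted (0.549).

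Ctsd, the aspartic protease cathepsin D, measured 220 ± 29.4 CPM in control and 128 ± 14.1 CPM in combination and fell by 0.79 ± 0.20 on the log2 scale (edgeR adjusted p = 0.0476). That call held in 4 of 12 fits without a library (adjusted p from 0.0206 to 0.176, the highest without combination 2), and it ended with limma voom (0.0734). The RFX subunits stayed near a single level: Rfx5 group means ran from 24.3 to 27.96 CPM, Rfxap from 16.2 to 18.7 and Rfxank from 7.91 to 8.97. Ctss, the protease that trims Cd74, ranged from 230.1 (swimming 2) to 887.7 CPM (curcumin 2) and passed no test. Where none passed, the smallest unadjusted p-values belonged to H2-Eb2 (1.61 ± 0.55, edgeR adjusted p = 0.368), Nfyb and Ifi30 in curcumin against control, to Ctsd, Ctsb and Nfya in combination against curcumin, to Ctsl, Creb1 and Nfya in combination against swimming and to Nfya, Rfxap and Creb1 in the interaction. H2-Eb2 rested on 19 counts in control and 55 in curcumin.

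Of 16 genes of the interferon-gamma axis, the cytokine route that turns Ciita on, 14 were tested. Irf1, a transcription factor induced by interferon-gamma, measured 171.1, 172.0 and 166.0 CPM in control, 196.2, 240.4 and 205.8 in curcumin, 176.7, 153.4 and 183.9 in swimming and 132.5, 135.0 and 126.2 in combination. The combination libraries were below all the others and the curcumin libraries above them. Irf1 fell in combination by 0.37 ± 0.09 (log2) against control (edgeR adjusted p = 0.0415), by 0.71 ± 0.09 against curcumin (0.0110) and by 0.38 ± 0.09 against swimming (0.0310). These calls held in 4, 8 and 6 of 12 fits without a library, with adjusted p up to 0.147 (without combination 3), 0.0926 (without combination 2) and 0.122 (without combination 3). The first call also ended with limma voom (0.0723) and with only the 2 groups fitted (0.0690).

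Socs1, an inhibitor of interferon-gamma signalling, averaged 19.2 ± 3.09 CPM in curcumin and 7.28 ± 0.822 CPM in swimming and fell by 1.40 ± 0.22 on the log2 scale (edgeR adjusted p = 0.0158). The call held in 9 of 12 fits without a library, with the highest adjusted p of 0.0958 without swimming 1. In curcumin against control 0 of the 14 passed (0.0% of all genes). Irf1 (0.34 ± 0.09, edgeR adjusted p = 0.293) and Socs1 (0.56 ± 0.22, 0.393) were among those with the smallest p-values. In swimming against control 0 passed (0.308% of all genes), and Socs1 (-0.84 ± 0.22, edgeR adjusted p = 0.140), Ifngr2 and Cxcl9 came first. Ifng itself had 58 counts in all and was at 0 in 4 libraries.

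Costimulation genes, which give T cells the signal that accompanies class II, had 11 of 14 tested. Cd80, a ligand of CD28 and CTLA-4, measured 4.85, 10.1 and 7.00 CPM in control, 9.16, 6.67 and 5.78 in curcumin, 16.9, 16.7 and 24.9 in swimming and 7.81, 7.09 and 7.90 in combination. Every swimming library was above every other library. Cd80 rose in swimming by 1.42 ± 0.26 (log2) against control (edgeR adjusted p = 0.0413) and by 1.44 ± 0.26 against curcumin (0.0233), and was lower in combination than in swimming by a log2 difference of -1.36 ± 0.26 (0.0154). The calls held in 1, 8 and 8 of 12 fits without a library, with adjusted p up to 0.165 (without swimming 1), 0.129 (without curcumin 3) and 0.0801 (without combination 2). The first also ended with limma voom (0.198) and with only the 2 groups fitted (0.521). In swimming 2, where 7 class II genes were at their lowest, Cd80 was close to its level in swimming 1.

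In the remaining comparisons 0 of the 11 costimulation genes passed, beside 0.0% to 4.86% of all genes. The smallest p-values were those of Cd40 (0.80 ± 0.29), Cd274 and Cd86 in curcumin against control, Pdcd1lg2, Tnfsf9 and Cd86 in combination against control, Cd40 (-0.94 ± 0.29), Cd86 and Cd274 in combination against curcumin, and Cd80, Cd86 and Ctla4 in the interaction. The 17 class I presentation genes, the sister pathway for CD8 T cells, gave 0 calls in every comparison, beside 0.0% to 6.66% of all genes. Psmb8, Tapbp and Psmb9 led in curcumin against control, Tap1, B2m and Erap1 in swimming against control, H2-D1, Nlrc5 and H2-K1 in combination against control, and Psmb9 (-0.48 ± 0.14, edgeR adjusted p = 0.113), Psme1 and Psmb8 in combination against curcumin. Calr, Nlrc5 and H2-D1 led in combination against swimming, Psmb8, Psmb9 and Tapbpl in swimming against curcumin, and Psmb9, Psmb8 and Pdia3 in the interaction.

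Over the 12 libraries, the dendritic and macrophage lists rose and fell with the class II level (r = 0.86 and 0.83). The T cell list did so as closely (r = 0.87), so the relation was not limited to lists of cells that carry class II. Dendritic sums did not follow the set by group. By group mean the class II level was lowest in swimming and highest in curcumin, yet mean dendritic sums there were 104.3 and 102.1 CPM. Dendritic cell markers (12 genes, 10 tested) summed to 95.6 to 118.7 CPM in control, 99.5 to 104.3 in curcumin, 75.3 to 132.8 in swimming and 76.2 to 85.4 in combination. Itgax made up most of this sum, at group means of 58.6 to 74.6 CPM, whereas Flt3 and Clec9a stayed under 3 CPM in each group mean. Among the defining markers, Xcr1 was at 0 in 1 library, Cd209a in 1 and Siglech in 3. Zbtb46 fell in combination against control by 0.50 ± 0.13 on the log2 scale (edgeR adjusted p = 0.0499), a call that held in 2 of 12 fits without a library (adjusted p up to 0.171, without combination 2) and ended with limma voom (0.0729) and with only the 2 groups fitted (0.125).

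Macrophage markers (12 of 12 tested) summed to 1173 to 2095 CPM in control, 1318 to 2022 in curcumin, 879.8 to 1477 in swimming and 1134 to 1145 in combination. Among them Msr1 and Trem2 fell in combination against curcumin by 0.86 ± 0.13 and 1.06 ± 0.21 (edgeR adjusted p = 0.0149 and 0.0378), and Trem2 and Fcgr1 fell in swimming against curcumin by 1.12 ± 0.21 and 0.92 ± 0.19 (0.0275 and 0.0361). Msr1 also fell in combination against swimming by 0.45 ± 0.13 (0.0496), and Mertk rose in swimming against control by 0.86 ± 0.16 (0.0407). Those 6 calls held in 7, 5, 5, 5, 4 and 2 of 12 fits without a library, with adjusted p up to 0.110, 0.169, 0.129, 0.136, 0.163 and 0.186. The highest values came without combination 2, combination 3, swimming 1, swimming 1, swimming 3 and swimming 1. The call for Mertk also ended with limma voom (0.240) and with only the 2 groups fitted (0.521). Monocyte markers (5 of 5 tested) summed to 185.3 to 223.4 CPM in control, 206.2 to 331.6 in curcumin, 97.3 to 169.5 in swimming and 135.9 to 147.5 in combination. Ccr2, the receptor that brings monocytes into tissue, fell in swimming against curcumin by 1.47 ± 0.31 (edgeR adjusted p = 0.0461), and Plac8 fell in combination against curcumin by 0.97 ± 0.19 (0.0370). Those calls held in 3 and 5 of 12 fits without a library, with adjusted p up to 0.163 (without swimming 1) and 0.203 (without combination 2).

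B cell markers were close to absent. Their 9 genes, of which 3 were tested, summed to 2.38 to 13.6 CPM. Ms4a1 had 13 counts over all 12 libraries and was at 0 in 7 of them. T cell markers summed to 21.5 CPM in swimming 2 and to 51.0 to 142.4 CPM in the other 11 libraries. Of the 8, 0 were called in any comparison, beside 0.0% to 6.66% of all genes. The parts of these cells in the class II differences were not tested.

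Relations with the marker lists were computed over 12 libraries for 6 lists as a description. The level of a list used only its tested genes, which were 3 for B cells. The class II level had r = 0.86 with the dendritic list (Spearman's rho 0.86), 0.83 with macrophages (0.83), 0.87 with T cells (0.78), 0.76 with B cells (0.58), -0.07 with neutrophils (-0.10) and -0.74 with tumour epithelial markers (-0.70). After subtraction of group means these were 0.97, 0.74, 0.90, 0.83, -0.10 and -0.82. Without the 2 libraries farthest from each list's median they were 0.81, 0.61, 0.59, 0.41, -0.10 and -0.71. Swimming 2 lay among those farthest for 4 of the 6 lists, and the B cell relation dropped to 0.43 without it. These lists were chosen with earlier results of the data known, so no p is attached.

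**Figure D5:**
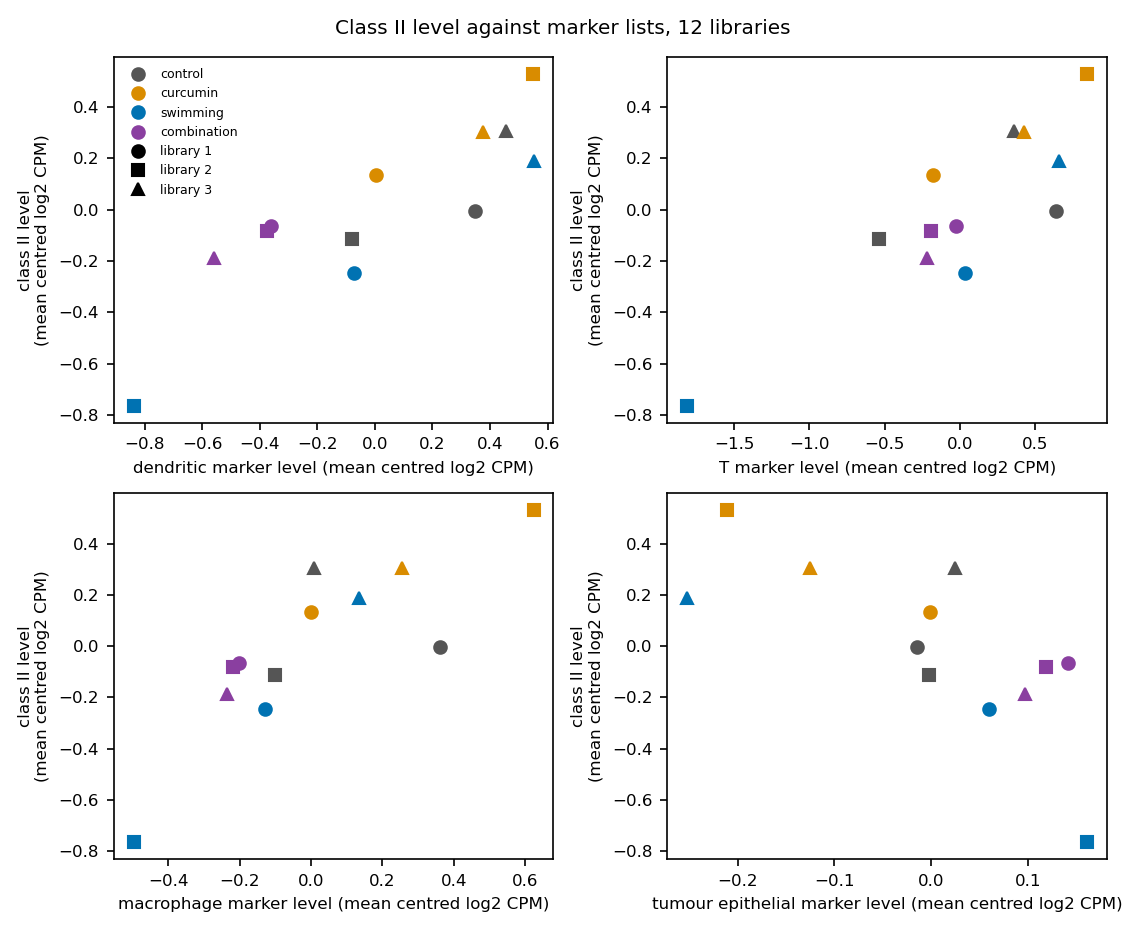
Class II level (vertical axis) against the level of 4 marker lists (horizontal axes), both as mean centred log2 CPM, in 12 libraries with colour for group and shape for library number. Swimming 2 (blue square) lies lowest at -0.76, curcumin 2 (orange square) highest at 0.53, and the tumour epithelial panel slopes the other way from the other 3.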

How the data were processed

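RNA from 12 tumour libraries in 4 groups of 3 was analysed from the table deposited by the authors, which holds read counts and FPKM values for 21899 genes. The submitters' processing notes name cutadapt, TopHat2, HISAT2, HTSeq 0.9.1, DESeq 1.30.0 and build GRCm39, without their roles, whereas the labels' protocol names mm9. The strand setting is not given in the sources used here. The deposited FPKM values equalled count over length and library total for 184877 of 184877 values above 0. Gene coordinates are those of the table. Groups came from the sample titles, and totals ran from 15069348 to 17278826 counts. Counting error and floors (3 counts) do not cover variation between tumours.

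Genes passing filterByExpr (minimum count 10, minimum total 15) numbered 13638. Counts were scaled by TMM and fitted over all 12 libraries with edgeR 4.0.16 in R 4.3.3 (quasi-likelihood test with robust spread, 8 residual degrees of freedom), with Benjamini-Hochberg adjustment over all genes tested. CPM used TMM library sizes, and log2 CPM a prior count of 2. The fitting code was tested on simulated data. As alternatives, each library was left out in turn, the combination libraries were summed, the filter was dropped or raised to a mean count of 50, RLE scaling replaced TMM, DESeq2 1.42.0 or limma 3.58.1 voom (weighted by group) replaced edgeR, the fit was limited to the groups compared, a block for replicate number was added and, chosen after seeing the data, a spread without robust weights.

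The members, the gene lists and the tests were chosen with earlier results of these data known. Named genes were the 8 members, every called gene of the pathway, interferon-gamma, costimulation and class I lists or otherwise the up to 3 of smallest p in a comparison, the called genes of the cell lists, and the 10 genes most correlated with the class II level. Some genes that this rule names are not reported here. Cell lists covered dendritic cells, macrophages, monocytes, B cells, T cells, neutrophils, leukocytes, tumour epithelium, skeletal muscle, adipocytes, endothelium and fibroblasts. Promoter sequences are RefSeq windows of GRCm38.p6. The permutation p-values planned for relations with marker lists are not reported, because the members and lists were chosen with results known.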

Additional observations from a re-analysis of the deposited data

Results flagged for a closer look

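The interaction asks whether the effect of swimming differed between tumours with and without curcumin. In edgeR it called 4 genes of the lists, beside 0.249% of all genes. Irf1 had an interaction of -0.72 ± 0.13 on the log2 scale (edgeR adjusted p = 0.0482), a call kept in 2 of 12 fits without a library (adjusted p up to 0.172, without combination 2). Itgb2, the leukocyte integrin β2 chain, had -1.28 ± 0.20 (edgeR adjusted p = 0.0263), kept in 5 of 12 fits (up to 0.111, without combination 2). The endothelial genes Plvap and Pecam1 had 1.32 ± 0.22 and 1.14 ± 0.20 (edgeR adjusted p = 0.0339 and 0.0466), kept in 5 and 3 of 12 fits (up to 0.141 and 0.172, both without combination 2). The call for Irf1 ended with limma voom (0.0636). With replicate number as a block in edgeR, Irf1 (adjusted p = 0.105), Itgb2 (0.0556) and Plvap (0.0541) ended, while Pecam1 held (0.0494). No class II gene passed the interaction test.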

How the results depend on the processing

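The count of 8 class II genes called was 0 in edgeR in every comparison. It stayed 0 without the filter, with a filter at a mean count of 50 (which left out H2-Oa), with RLE scaling and with a spread without robust weights. It changed in 3 comparisons. For combination versus curcumin it was 4 with limma voom and a weight per group (14.2% of all genes) and 3 with only the 2 groups fitted (16.0%). For swimming versus curcumin it was 1 with DESeq2 (7.57% of all genes), 3 with limma voom (6.65%) and 0 to 2 over the fits that left out a library. Without control 2 it was 2, beside 11.1% of all genes. For any difference among the 4 groups it was 1 with DESeq2 (19.5% of all genes) and 0 to 1 over the fits that left out a library. Without control 2 it was 1, beside 18.5% of all genes. The cause was not tested. The set's median log2 fold change for swimming versus control ran from -0.63 to -0.16 over the fits without a library. Depth limits H2-Oa, with 9 to 25 counts per library.

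The labels do not say whether replicate numbers pair the samples. Of same-numbered pairs of deviations from group means, 2 of 18 correlated above 0.1 (r from -0.25 to 0.16, mean 0.0007). Of differently numbered pairs, 2 of 36 did (r from -0.19 to 0.23). With 3 libraries in each group this check cannot exclude pairing. With replicate number as a block, the count of class II genes called was 0 in every comparison and the median was 0.27 for curcumin versus control, -0.36 for swimming versus control and -0.55 for swimming versus curcumin. Of the 46 calls for genes outside the set, 25 held under the block and 21 ended (adjusted p from 0.0502 to 0.105), among them Ctsd in combination versus control (0.0591). Among all genes the block moved the calls for combination versus control from 663 to 220. Signs that turned under the block or limma voom belonged to H2-Aa (0.06 and 0.0863) and H2-Ab1 (0.0124 and 0.12) in combination versus swimming and to H2-Oa (-0.0531 and -0.0576) in combination versus curcumin. None of the 3 passed a test in either fit.

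Leaving out a library turned the sign of small differences. In combination versus swimming the log2 fold change ranged over those fits from -0.21 to 0.35 for Cd74, -0.27 to 0.43 for H2-Aa, -0.46 to 0.44 for H2-Ab1, -0.15 to 0.60 for H2-Eb1, -0.0873 to 0.35 for H2-DMa, -0.0023 to 0.34 for H2-DMb1 and -0.23 to 0.48 for H2-Oa. In swimming versus control it ranged from -0.54 to 0.021 for Cd74, -0.77 to 0.14 for H2-Ab1, -0.30 to 0.14 for H2-DMa and -0.15 to 0.51 for H2-Oa. In combination versus control it ranged from -0.0386 to 0.17 for H2-DMa, -0.46 to 0.0578 for H2-DMb1 and -0.0521 to 0.67 for H2-Oa. In swimming versus curcumin the ranges were -0.67 to 0.23 for H2-Ab1 and -0.44 to 0.0726 for H2-Oa, in combination versus curcumin -0.33 to 0.33 for H2-Oa, and in curcumin versus control -0.24 to 0.006 for H2-Ab1.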

Other observations

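Among the cell lists not described above, neutrophil markers summed to 38.6 to 40.0 CPM in combination, 117.3 to 123.5 CPM in swimming, 56.1 to 152.2 CPM in curcumin and 60.5, 250.7 and 62.5 CPM in control libraries 1 to 3. Retnlg, a neutrophil-secreted protein, fell in combination, with log2 differences of -3.12 ± 0.58 against control and -3.04 ± 0.59 against swimming (edgeR adjusted p = 0.0195 and 0.0166). S100a8 fell too (-2.80 ± 0.70 and -2.87 ± 0.70) in the same comparisons (0.0479 and 0.0394), and so did S100a9 against swimming, at -2.88 ± 0.73 (0.0447). Those 5 calls held in 9, 7, 2, 5 and 4 of 12 edgeR fits without a library, with adjusted p up to 0.0970, 0.0806, 0.170, 0.131 and 0.143 (the highest without combination 3, combination 3, combination 2, combination 2 and combination 3). Control 2 was far above the other control libraries: without it, the differences against control were -1.99 for Retnlg (adjusted p = 0.0149) and -1.53 for S100a8 (0.0816). Against control both calls also ended with only the 2 groups fitted (0.0923 and 0.124), and that of S100a8 with limma voom (0.0700). Itgb2 fell in combination by 0.89 ± 0.14 against curcumin and by 0.75 ± 0.14 against swimming (edgeR adjusted p = 0.0190 and 0.0143), each held in 7 of 12 fits (up to 0.120 without combination 3 and 0.0721 without combination 2). All 7 of these calls involve the combination libraries, whose biological coefficient of variation was the smallest of the groups (6.47%).

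Endothelial markers summed to 412.4 to 480.5 CPM in combination and to 140.5 to 229.3 CPM in swimming. In combination against swimming 7 of 8 were called higher, beside 3.5% of all genes. Among them Plvap rose by 1.27 ± 0.15, Emcn by 1.62 ± 0.22, Pecam1 by 1.03 ± 0.14 and Tek by 1.97 ± 0.30 (edgeR adjusted p from 0.00335 to 0.00815). These 4 calls held in 12 of 12 fits without a library. Kdr rose by 1.37 ± 0.23, Cdh5 by 1.30 ± 0.30 and Tie1 by 0.91 ± 0.24 (edgeR adjusted p = 0.0113, 0.0333 and 0.0414), with 11, 6 and 4 of 12 fits (up to 0.0586 without combination 2, 0.115 without combination 2 and 0.130 without combination 3). Emcn also rose in combination against control by 1.00 ± 0.22 (edgeR adjusted p = 0.0318), held in 6 of 12 fits (up to 0.133, without combination 2). Plvap, Tek and Pecam1 fell in swimming against curcumin by 0.71 ± 0.15, 1.34 ± 0.30 and 0.63 ± 0.14 (edgeR adjusted p = 0.0420, 0.0460 and 0.0473), held in 3, 2 and 4 of 12 fits (up to 0.169, 0.142 and 0.161, each without curcumin 3).

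Adipocyte genes were low outside combination: Cfd averaged 0.0392 CPM in control and 3.17 CPM in combination, Cidec 0.0195 and 1.76 CPM, and Pck1 was at 0 in control and at 1.32 CPM in combination. All 3 were called in edgeR (adjusted p = 0.0195, 0.0217 and 0.0234), each in 9 of 12 fits without a library (up to 0.0888, 0.0978 and 0.0994, each without combination 2). Cidec was also called in combination against curcumin (0.0282, held in 4 of 12, up to 0.147 without combination 2), and Fabp4 rose in combination against swimming by 1.21 ± 0.24 (0.0173, held in 7 of 12, up to 0.0849 without combination 2). Cfd against control was not called with limma voom (0.067). Fibroblast markers summed to 5474 to 5837 CPM in combination and to 1889 to 3436 CPM in swimming with no gene called in those comparisons. Epcam, a tumour epithelial marker, was called only in the test for any difference among the 4 groups (edgeR adjusted p = 0.0315).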
